A study of Mus musculus with 4 samples.

Results

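The genes examined here encode the receptors, ligands, adaptors and modulators of insulin-like growth factor (IGF) and insulin signalling, in a T-cell line in which Ikaros was activated. They are 9 of the 19938 genes that the arrays measured with a probe set of their own: the receptors *Igf1r*, *Insr* and *Igf2r*, the adaptors *Irs1*, *Irs2* and *Grb10*, the ligands *Igf1* and *Igf2*, and the carrier *Igfbp4*. They were taken by name, and each was read from its probe set with exactly 1 gene symbol and the highest mean. Cells of the line ILC87-Ik1-ER received either 100 nM 4-hydroxytamoxifen (4OHT) or only its vehicle, ethanol (EtOH), and 24 h later RNA was put on Affymetrix Gene ST 1.0 arrays, 2 per treatment. ILC87 is a line from a thymic tumour of 1 mouse with floxed Ikaros alleles and Cre driven by *Lck*, a promoter active in T-lineage cells, and it lacks Ikaros. The labels give its strain as C57BL/6, whereas the study's methods describe mice of this cross as of mixed background. All cells on the arrays carried a retrovirus for Ik1-ER, full-length Ikaros joined to the hormone-binding part of an oestrogen receptor, together with GFP, and had been sorted as GFP+ cells. 4OHT moves the fusion protein into the nucleus, so that the comparison asks which mRNA levels differ 1 day after nuclear Ikaros is induced. No array held 4OHT-treated cells without Ik1-ER, and a response to 4OHT alone cannot be told apart from one to Ikaros.

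IGF1, IGF2 and insulin are secreted hormones that bind the receptor tyrosine kinases encoded by *Igf1r* and *Insr*. The active receptors phosphorylate the adaptors IRS1 and IRS2, which recruit PI3K and, through it, activate AKT and mTORC1 and keep FOXO transcription factors out of the nucleus, and a second branch runs through RAS and MAPK. IGF signalling supports growth and survival of lymphoid cells, and *Igf1r* is a known Notch-regulated gene of T-cell leukaemia.

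After 24 h of 4OHT, *Igf1r* fell 2.30-fold and *Irs1* 2.01-fold against EtOH, while *Irs2*, the other main adaptor, rose 1.45-fold. By limma these 3 of the 9 genes, 2 lower and 1 higher, passed a Benjamini-Hochberg adjusted p of 0.05. *Insr*, *Igf2r*, *Grb10*, *Igf1*, *Igf2* and *Igfbp4* did not pass the test. In bulk samples fewer cells that express a gene and less RNA per cell cannot be told apart. Over all 19938 genes 4.23% passed it, 2.99% lower and 1.23% higher, and over all probe sets 3.16%. The 9 genes were chosen with earlier results of these data known, so that their share cannot be read as an excess. On both 4OHT arrays 5 of the 9 genes lay below both EtOH arrays, as did 24.5% of all genes, and 1 lay above them, as did 32.1%. Together these are 6 of 9 genes, near the 56.6% of all genes whose arrays did not overlap, so that the separation of the arrays alone does not set these genes apart. Their median log2 fold change was −0.22, and that of all genes 0.031. Whether samples 1 and 2 of a treatment were separate cultures is not stated, and the p-values therefore measure only how far these samples spread, which may be technical. With 2 arrays per treatment an exact two-sided permutation test reaches p = 0.33 at the lowest.

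The stretches before the transcription starts of the 3 genes that passed the test are shown because Ikaros is a DNA-binding factor and these genes changed in both directions. They are the 250 bases upstream of the start from RefSeq (GRCm38.p6), each read 5′ to 3′ on the strand of its gene, and capitals mark matches to GGAA or GGGA on either strand, core sequences that Ikaros is known to bind.
Igf1r, chr7:67952007-67952256, + strand: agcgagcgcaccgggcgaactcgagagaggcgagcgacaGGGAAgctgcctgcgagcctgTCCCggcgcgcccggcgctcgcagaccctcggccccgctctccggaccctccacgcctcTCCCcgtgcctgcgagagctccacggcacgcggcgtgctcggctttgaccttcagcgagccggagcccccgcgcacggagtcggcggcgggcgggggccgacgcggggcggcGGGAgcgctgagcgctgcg
Irs1, chr1:82291440-82291689, - strand: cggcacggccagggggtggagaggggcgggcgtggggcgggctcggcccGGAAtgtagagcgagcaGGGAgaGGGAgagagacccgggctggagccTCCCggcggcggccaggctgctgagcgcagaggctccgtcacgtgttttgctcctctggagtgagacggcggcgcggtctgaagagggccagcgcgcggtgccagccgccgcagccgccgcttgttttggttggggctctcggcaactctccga
Irs2, chr8:11008930-11009179, - strand: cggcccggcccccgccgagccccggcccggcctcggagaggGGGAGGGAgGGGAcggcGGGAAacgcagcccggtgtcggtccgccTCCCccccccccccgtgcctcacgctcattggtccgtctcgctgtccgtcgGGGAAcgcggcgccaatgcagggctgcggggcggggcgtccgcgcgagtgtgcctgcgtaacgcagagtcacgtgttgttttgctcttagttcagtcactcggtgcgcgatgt
Matches to these cores overlap each other where GGGAA occurs. In the whole window of 300 bases, from 250 before to 50 after the start, *Igf1r* held 7, *Irs1* 8 and *Irs2* 9 such matches, while the median over 32851 promoter windows was 7 (quartiles 5 and 10) and 99.6% of them held at least 1. The longer motifs AGGAAA and AGGAAG, which contain GGAA, were also searched on both strands. AGGAAA occurred in 29.1% and AGGAAG in 35.4% of all windows. Neither was found in the window of *Igf1r* or *Irs2*, and that of *Irs1* held 1 AGGAAG, which began 5 bases after the first transcribed base. Of the other members, *Igf2r*, *Igf1*, *Igf2* and *Grb10* held at least 1 of the longer motifs in a window and *Igfbp4* held none. The table used holds windows of 8 of the 9 genes, and *Insr* was not searched.

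*Igf1r* encodes the receptor tyrosine kinase for IGF1 and IGF2. Its log2 expression values (RMA) were 9.83 and 10.05 with EtOH and 8.78 and 8.70 with 4OHT. The lowest EtOH array lay 1.05 above the highest 4OHT array, whereas arrays of 1 treatment differed by at most 0.22. The log2 fold change was −1.20 (95% interval −1.47 to −0.93, adjusted p = 0.0172 from limma), a 2.30-fold lower level and the 124th lowest fold change of the 19938 genes. *Insr*, the insulin receptor, had values of 9.46 and 9.26 with EtOH and 8.81 and 9.03 with 4OHT. Both 4OHT arrays were below both EtOH arrays, by 0.23 at the nearest, but arrays of 1 treatment also differed by up to 0.22. Its log2 fold change of −0.44 (95% interval −0.76 to −0.13) did not pass the test (adjusted p = 0.152 from limma). Another *Insr* probe set had log2 values of 8.76 and 8.93 with EtOH and 8.69 and 8.51 with 4OHT (log2 fold change −0.25, adjusted p = 0.321 from limma). Both *Insr* probe sets were lower with 4OHT in each array pair, and neither passed. *Igf2r* encodes a receptor that does not signal as a kinase but carries IGF2 and mannose 6-phosphate-tagged enzymes to lysosomes. It was measured at 9.39 and 9.36 with EtOH and at 9.23 and 9.08 with 4OHT. These arrays did not overlap either, and the log2 fold change of −0.22 had a 95% interval of −0.44 to 0.0014 (adjusted p = 0.273 from limma), so that a fall of more than 0.44 on the log2 scale lies outside that interval.

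**Figure D1:**
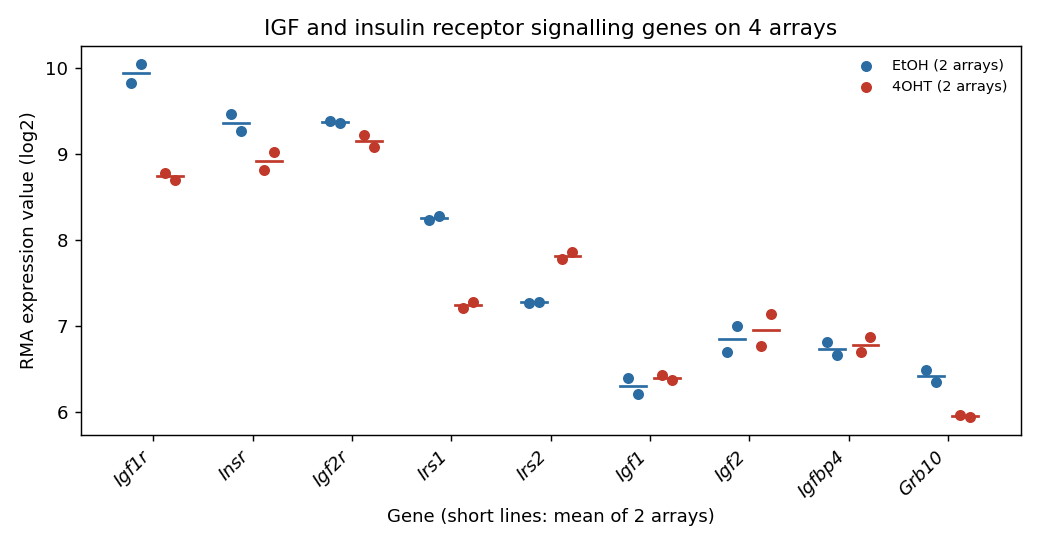
RMA expression values (log2, vertical axis) of the 9 genes by array. Each point is 1 array, EtOH in blue and 4OHT in red, and short lines are means of 2 arrays; those of Igf1r and Irs1 lie apart by 1.20 and 1.01 in favour of EtOH, those of Irs2 by 0.54 in favour of 4OHT, and the arrays of Igf1, Igf2 and Igfbp4 overlap. Heights of different genes are not comparable.

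*Irs1* and *Irs2* encode the docking proteins that link both receptor kinases to PI3K. *Irs1* had log2 values of 8.23 and 8.28 with EtOH and of 7.21 and 7.28 with 4OHT. Arrays of 1 treatment differed by at most 0.075, and the gap between treatments was at least 0.95. The log2 fold change was −1.01 (95% interval −1.21 to −0.81, adjusted p = 0.0141 from limma), which is 2.01-fold lower and the 195th lowest fold change of all genes. *Irs2* had values of 7.28 and 7.28 with EtOH and of 7.78 and 7.86 with 4OHT. It moved the other way, with at least 0.50 between any 4OHT and any EtOH array. The log2 fold change was 0.54 (95% interval 0.35 to 0.73, adjusted p = 0.0405 from limma), the 306th highest of all genes. *Irs1* also has a dimmer probe set, with values of 5.18 and 5.30 with EtOH and 5.07 and 4.99 with 4OHT. It was lower by a smaller amount and did not pass the test (log2 fold change −0.21, adjusted p = 0.287 from limma), and the mean of both probe sets gave a log2 fold change of −0.61 that passed it (adjusted p = 0.0345 from limma). The call of *Irs2* was lost when the arrays were quantile-normalized again, shifted to equal medians or fitted with an intensity trend (adjusted p = 0.0515, 0.0510 and 0.0506 from limma), at log2 fold changes of 0.52 to 0.54. *Grb10* encodes an adaptor that binds both receptors and restrains their signalling. Its values were 6.49 and 6.36 with EtOH and 5.97 and 5.95 with 4OHT. Both 4OHT arrays were lower by at least 0.39, and the log2 fold change of −0.47 (95% interval −0.68 to −0.25) missed the threshold (adjusted p = 0.0692 from limma). *Grb10* passed the test when dim probe sets, with means under 6, were left out (adjusted p = 0.0483 from limma) and, like *Insr*, among probe sets with 1 gene symbol (adjusted p = 0.00373 and 0.0151 from limma).

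**Figure D2:**
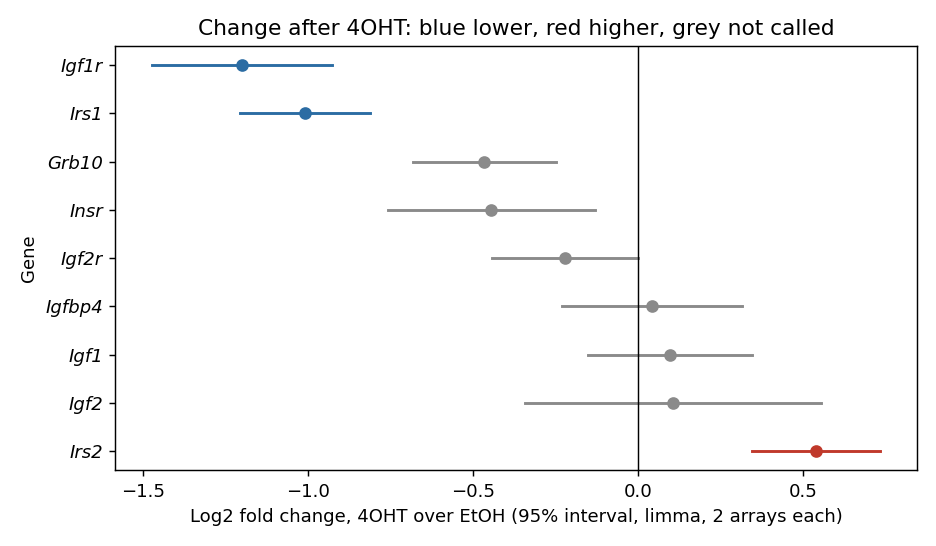
Log2 fold change, 4OHT over EtOH (horizontal axis), of the 9 genes with the 95% interval of limma (2 arrays per treatment). Blue is lower, red higher and grey not past an adjusted p of 0.05; Igf1r (−1.20) and Irs1 (−1.01) lie farthest from 0, Irs2 (0.54) is the only one higher past the test, and the intervals of Igfbp4, Igf1, Igf2 and Igf2r include 0.

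The ligands and the carrier were dim, and their differences lay within the spread between arrays. *Igf1* had log2 values of 6.40 and 6.21 with EtOH and 6.43 and 6.37 with 4OHT (log2 fold change 0.098, 95% interval −0.15 to 0.35, adjusted p = 0.632 from limma). *Igf2* had values of 6.70 and 7.00 with EtOH and 6.77 and 7.14 with 4OHT, and within each treatment array 2 was brighter by 0.30 and 0.37, more than the log2 fold change of 0.10 (95% interval −0.34 to 0.55, adjusted p = 0.784 from limma). *Igfbp4*, which encodes a binding protein that withholds IGFs from the receptor, had values of 6.82 and 6.66 with EtOH and 6.70 and 6.87 with 4OHT (log2 fold change 0.043, 95% interval −0.23 to 0.32, adjusted p = 0.858 from limma). The arrays of the 2 treatments overlapped for all 3 genes. Together with *Grb10* these genes lay between 5.95 and 7.14, mostly below the array medians of 7.11 to 7.16. Markers of B cells on the same arrays spanned 4.69 to 6.96 and those of epithelium 5.86 to 7.62. Those of macrophages spanned 5.05 to 8.71 and those of stroma 3.98 to 11.50. No detection calls accompany the values, and whether *Igf1*, *Igf2*, *Igfbp4* and *Grb10* lay above background could not be judged.

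When each of the 4 arrays was left out in turn, *Igf1r* (log2 fold change between −1.31 and −1.09) and *Irs2* (between 0.50 and 0.58) lost their calls every time. *Irs1* (between −1.05 and −0.97) kept its call only without 4OHT replicate 1. These fits have 1 residual degree of freedom, and without EtOH replicate 1 or EtOH replicate 2 no gene of the array was called by limma, while 2819 and 2586 genes had an unadjusted p under 0.05.

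Other genes of the pathway were taken from 5 lists of ligands and binding proteins, adaptors, PI3K to FOXO, RAS to MAPK, and FOXO targets. Of their 96 measured genes, 5 fell and 5 rose by limma (adjusted p under 0.05), and 86 were not called. This is 10.4% called, against 4.23% of all genes, and the medians of the log2 fold changes were 0.0050 and 0.031. The lists were chosen with earlier results of these data known, so that the 10.4% cannot be read as an excess of pathway genes. With the lists of lysosomal sorting and imprinted genes given below, which added no call, the share was 7.94% of 126 genes. The genes of the 5 lists were also brighter than all genes (array means of 8.92 to 8.95 against 7.63 to 7.66). Whether this bears on the share called was not tested. When each array was left out in turn, some or all of these 10 calls were lost, while the log2 fold change of each of the 10 genes kept its sign.

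Outside the cell, 1 of 13 measured genes of other ligands, receptors, binding proteins and their proteases fell, 1 rose and 11 did not pass. *Stc1*, which encodes stanniocalcin-1, an inhibitor of the protease that cleaves IGFBP4, had log2 values of 11.39 and 11.45 with EtOH and 9.51 and 9.10 with 4OHT. It was 4.33-fold lower (log2 fold change −2.11, 95% interval −2.52 to −1.71, adjusted p = 0.0135 from limma), the widest difference of any gene in the pathway lists. Its paralog *Stc2* had values of 9.15 and 8.89 with EtOH and 8.96 and 8.54 with 4OHT, which overlap (adjusted p = 0.469 from limma). *Igfbp7*, a binding protein with low affinity for IGFs, had values of 7.67 and 7.72 with EtOH and 8.82 and 8.95 with 4OHT. It was 2.29-fold higher (log2 fold change 1.19, 95% interval 0.98 to 1.41, adjusted p = 0.0119 from limma), unlike *Igfbp4* above, although the difference between these 2 genes was not tested. The other 10 genes, among them *Ins2*, the proteases *Pappa* and *Pappa2* and the carriers *Igfbp1*, *Igfbp2*, *Igfbp3*, *Igfbp5* and *Igfbp6*, were dim (5.66 to 6.90), with log2 fold changes of −0.00061 to 0.19.

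At the receptor, none of the 21 measured adaptors and proximal regulators was called by limma, and 4 had an unadjusted p under 0.05, as did 20.4% of all genes. Log2 fold changes of the 21 genes lay between −0.38 and 0.36. Of the 4 genes, *Cbl* (0.36, adjusted p = 0.0942 from limma) and *Grb7* (0.20, 0.232) were higher. *Cblb* (−0.38, 0.111) and *Sh2b1* (−0.31, 0.150) were lower. The adaptors *Shc1* (log2 fold change 0.15, 95% interval −0.13 to 0.42) and *Grb2* (−0.037, −0.31 to 0.23), which lead to RAS, and the phosphatase *Ptpn1* (0.14, −0.049 to 0.34), which switches the receptors off, were not called, and their intervals reach no further than 0.42 upwards. *Irs3* and *Irs4*, the remaining IRS genes, were not called either (adjusted p = 0.494 and 0.670 from limma).

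**Figure D3:**
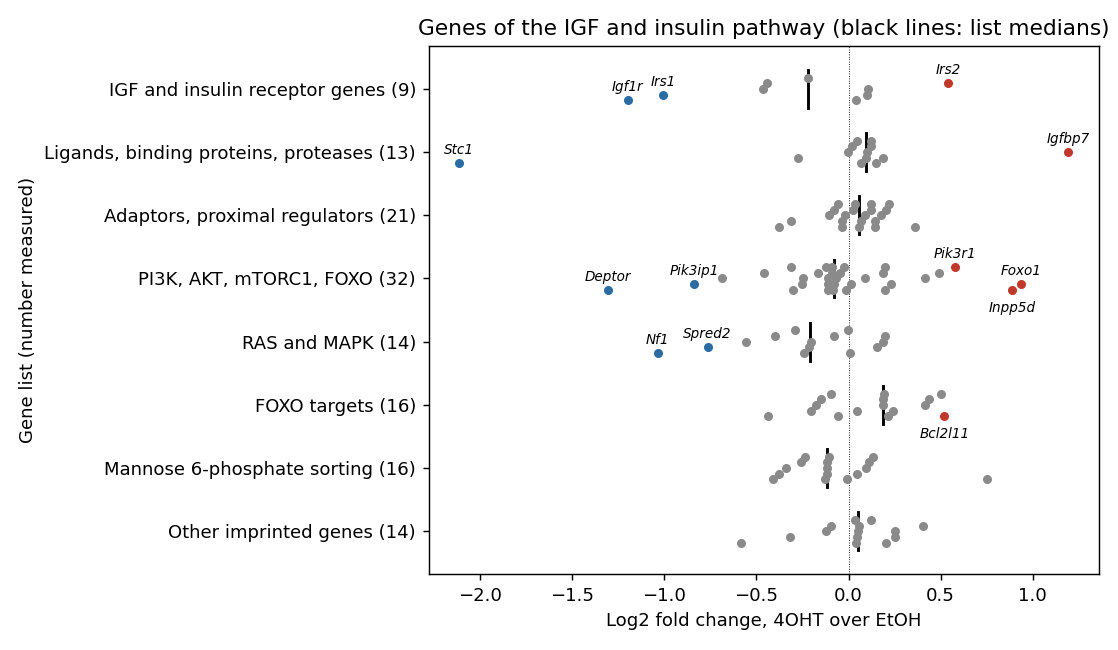
Log2 fold change, 4OHT over EtOH (horizontal axis), of every measured gene of 8 lists, with the number measured in brackets. Each point is a gene, blue if lower, red if higher and grey if not past an adjusted p of 0.05 from limma, and black lines are medians, which run from −0.22 for the IGF and insulin receptor genes to 0.19 for the FOXO targets; Stc1 (−2.11) and Igfbp7 (1.19) are the outermost genes.

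Downstream, 2 of 32 measured genes from PI3K to mTORC1 and FOXO fell and 3 rose. *Deptor*, which encodes an inhibitor of mTOR, had log2 values of 9.21 and 9.25 with EtOH and 7.91 and 7.93 with 4OHT, and was 2.48-fold lower (log2 fold change −1.31, 95% interval −1.49 to −1.12, adjusted p = 0.00868 from limma). *Pik3ip1*, which encodes an inhibitor of PI3K, went from 9.03 and 8.99 to 8.17 and 8.17 (log2 fold change −0.84, adjusted p = 0.0166 from limma). Both genes that fell encode inhibitors of the pathway, whereas those that rose had different roles. *Inpp5d* encodes SHIP1, a phosphatase that removes the lipid product of PI3K, and went from 7.71 and 7.59 to 8.63 and 8.45 (log2 fold change 0.89, adjusted p = 0.0279 from limma). *Pik3r1*, the gene of the regulatory subunit p85α that binds IRS proteins, went from 10.62 and 10.68 to 11.28 and 11.18 (log2 fold change 0.58, adjusted p = 0.0392 from limma). *Foxo1*, a transcription factor that AKT inactivates, went from 9.56 and 9.52 to 10.43 and 10.53, a 1.92-fold rise (log2 fold change 0.94, 95% interval 0.73 to 1.14, adjusted p = 0.0166 from limma). The other FOXO genes were not called. *Foxo4* had values of 8.55 and 8.43 with EtOH and 7.69 and 7.92 with 4OHT (log2 fold change −0.69, adjusted p = 0.0548 from limma), and passed the test without the probe sets whose means were under 6 (0.0352) and among those with 1 symbol (7.45e-04). *Foxo3* had a log2 fold change of −0.082 (95% interval −0.28 to 0.11, adjusted p = 0.612 from limma). The kinase genes *Akt1*, *Akt2* and *Mtor* had log2 fold changes of −0.17 to −0.070, and none was called. Other uncalled genes of the list differed more, among them *Pik3cb* (log2 fold change 0.49, adjusted p = 0.0890 from limma), *Eif4ebp1* (−0.46, 0.0641) and *Gsk3a* (0.41, 0.0753). Of the 32 genes 15 had an unadjusted p under 0.05 from limma, against 20.4% of all genes.

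**Figure D4:**
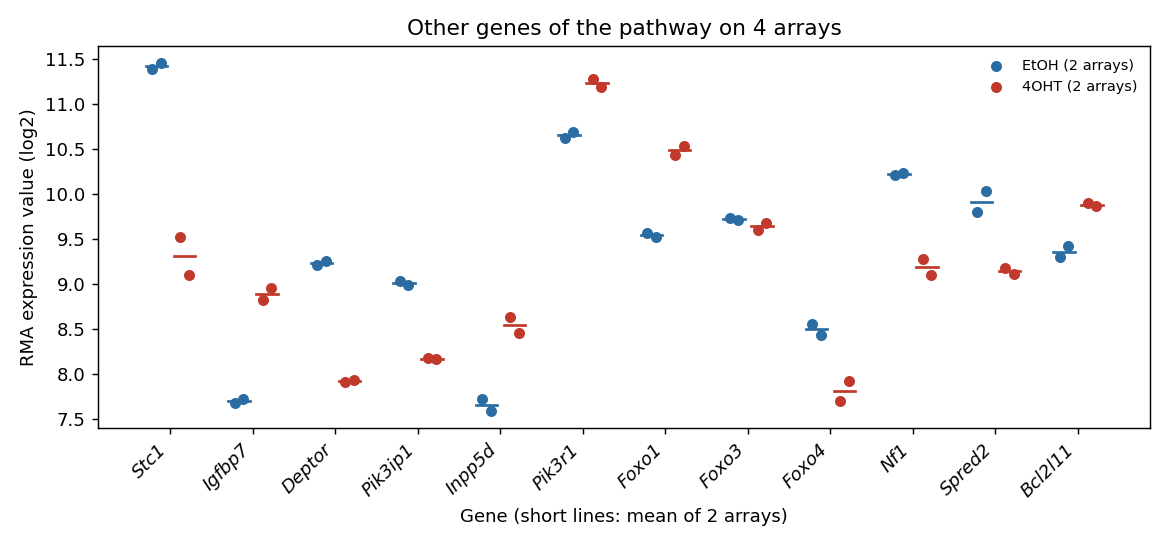
RMA expression values (log2, vertical axis) of 12 other genes of the pathway on each of the 4 arrays, EtOH in blue and 4OHT in red, with short lines at the means of 2 arrays. All but Foxo3 and Foxo4 passed an adjusted p of 0.05 from limma; Stc1 falls from 11.39 and 11.45 to 9.51 and 9.10, and Foxo1 rises from 9.56 and 9.52 to 10.43 and 10.53. Heights of different genes are not comparable.

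In the RAS and MAPK branch 2 of 14 measured genes fell and none rose. Both encode negative regulators. *Nf1*, the gene of neurofibromin, which switches RAS off, had log2 values of 10.21 and 10.23 with EtOH and 9.27 and 9.10 with 4OHT, 2.05-fold lower (log2 fold change −1.04, 95% interval −1.27 to −0.80, adjusted p = 0.0172 from limma). *Spred2*, which encodes an inhibitor of the step from RAS to ERK, went from 9.79 and 10.03 to 9.18 and 9.11 (log2 fold change −0.77, adjusted p = 0.0408 from limma). The list had a median log2 fold change of −0.21. Its other negative regulators were not called, with log2 fold changes of −0.55 (*Spred1*), −0.40 (*Spry1*), −0.29 (*Dusp6*), −0.0051 (*Rasa1*) and 0.011 (*Spry2*). Activators were not called and lay on both sides of 0, among them *Map2k1* (−0.24), *Sos1* (−0.21), *Braf* (0.19) and *Nras* (0.20).

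Of 16 measured FOXO target genes only *Bcl2l11*, which encodes the pro-apoptotic protein BIM, rose, from 9.30 and 9.41 to 9.89 and 9.86 (log2 fold change 0.52, adjusted p = 0.0497 from limma). It lost its call after a shift to equal medians (adjusted p = 0.0514) and with the mean of each gene's probe sets (0.0511). The median of the list was 0.19, and on both 4OHT arrays 7 of the 16 genes lay above both EtOH arrays and 5 below, where 32.1% and 24.5% of all genes did. For the sorting pathway that *Igf2r* serves, none of 16 measured genes of mannose 6-phosphate tagging, retrieval and lysosomal hydrolases was called by limma, and 6 had an unadjusted p under 0.05, against 20.4% of all genes (median log2 fold change −0.12). Log2 fold changes of these 16 genes ran from −0.41 to 0.75, and their lowest adjusted p was 0.0743 from limma.

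Over the 4 arrays, each centred on the mean of its gene, the patterns nearest to that of *Igf1r* were those of *Scd1*, which encodes a fatty acid desaturase (Euclidean distance 0.035 on the log2 scale), *Vwce* (0.040) and *Susd4* (0.045). *Scd1* had log2 values of 11.54 and 11.79 with EtOH and 10.53 and 10.41 with 4OHT. With 4 arrays such a likeness describes little more than a fall of equal size with the brighter EtOH array in the same place.

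The labelled cell type was checked with markers. All 11 measured T-cell genes of 13 listed lay between 9.83 and 13.3 on every array, with array means of 11.75 to 11.78 with EtOH and 11.62 to 11.67 with 4OHT, and of these *Cd3d* alone was called (lower). The levels of the others were not all steady. On both 4OHT arrays 6 of the 11 lay below both EtOH arrays and 5 above, where 24.5% and 32.1% of all genes did. An unadjusted p under 0.05 from limma was reached by 9 of the 11, against 20.4% of all genes. Of 27 markers of stroma, epithelium, macrophages and B cells, cells that could carry IGF ligands or binding proteins, 26 were measured, with array means of 6.50 to 6.56 with EtOH and 6.48 to 6.49 with 4OHT. Among them *Pdgfrb*, a growth factor receptor gene listed for stroma (11.35 and 11.50 with EtOH, 9.54 and 9.46 with 4OHT), and *Lyz2*, a myeloid gene (6.75 and 6.84 with EtOH, 5.60 and 5.53 with 4OHT), fell. The other 24 lay between 3.98 and 8.71 and were not called, the collagen gene *Col1a1* included (7.93 and 7.88 with EtOH, 8.10 and 8.22 with 4OHT). The part of *Pdgfrb* and *Lyz2* in the results above was not tested.

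**Figure D5:**
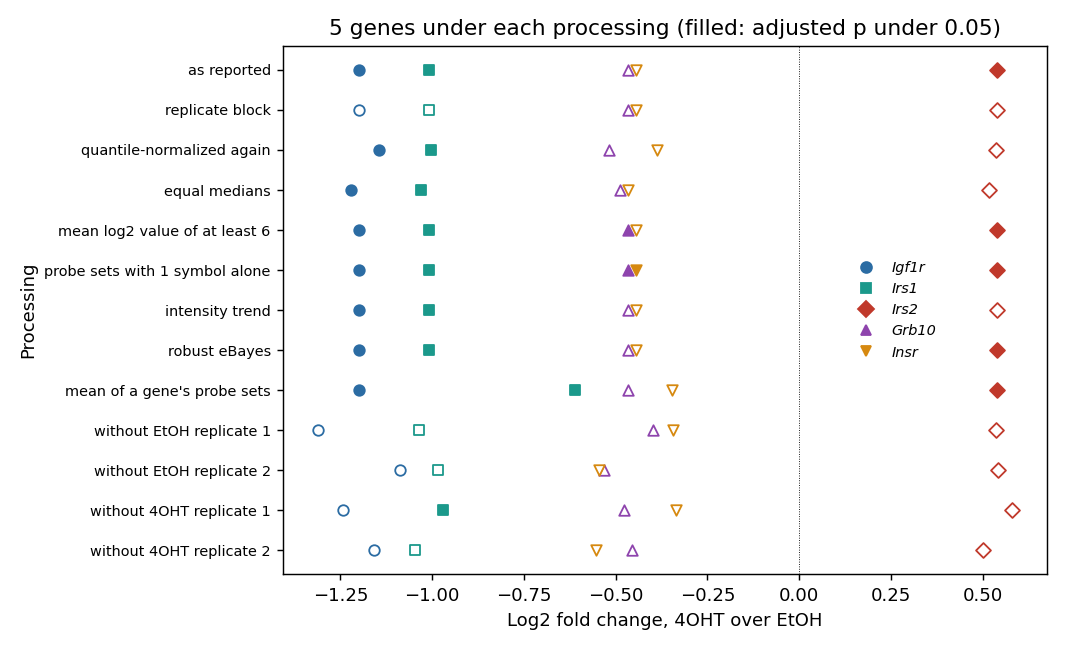
Log2 fold change, 4OHT over EtOH (horizontal axis), of 5 genes under each way of processing the 4 arrays (rows); symbols are filled where the adjusted p from limma was under 0.05. The sign of all 5 is the same in every row, Irs1 is −0.61 with the mean of its probe sets, and filled symbols of Insr appear among probe sets with 1 symbol alone.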

How the data were processed

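Total RNA (150 ng per sample) of 4 samples was labelled and hybridised to Affymetrix Gene ST 1.0 arrays. The deposited log2 values, for 35556 probe sets, were made by the authors with RMA in Affymetrix Expression Console 1.1, per the labels. RMA removes background, forces arrays to 1 distribution and sums up probes. A change common to most genes is lost, and small signals give understated differences. The sources used here name no genome build for the probe sets.

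Arrays were grouped by their labels, and 4OHT was set against EtOH with lmFit and eBayes of limma 3.58.1 in R 4.3.3 (two-sided, unfiltered, unblocked, 2 residual degrees of freedom). Benjamini-Hochberg adjustment covered all probe sets. Intervals hold for single genes at 95% and are not adjusted, and precision is bounded by the 4 arrays. Of the probe sets, 21789 had 1 symbol in the array annotation (1621 several, 12146 none). For 21698 of these the gene identifier was found in RefSeq (GRCm38.p6), and the symbol was taken from there, which gave 19938 genes. Named were all 9 members, up to 4 called genes per pathway list, genes that bind or oppose a called member, and the 3 genes nearest to *Igf1r*. *Stc2*, *Akt1*, *Akt2*, *Mtor*, *Col1a1*, *Pdgfrb*, *Lyz2*, *Cd3d*, *Plagl1* and *Airn* were named after their values were seen. So were *Cbl*, *Cblb*, *Sh2b1*, *Grb7*, *Pik3cb*, *Eif4ebp1*, *Gsk3a* and the uncalled genes named for RAS and MAPK. Members and lists were chosen with earlier results of these data known. The scripts were tested on simulated data.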

Additional observations from a re-analysis of the deposited data

How the results depend on the processing

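The counts of lower and higher genes among the 9 (2 and 1), of called probe sets (1123), of called genes (843) and of called genes of 7 pathway lists (10) changed with the processing as follows, with the cause not tested. With the sample number as a replicate block, 0 and 0 of the 9 genes, 42 probe sets, 30 genes and 0 pathway genes were called (adjusted p of *Igf1r*, *Irs1* and *Irs2* 0.0702, 0.0632 and 0.119 from limma). Nothing says that the numbers pair the samples, and deviations from the treatment means of same-numbered arrays correlated at −0.13 over probe sets. The crossed pairing, chosen after seeing the data, called 2 of the 9 genes lower and 0 higher, and 535 genes in all. After another quantile normalization, with equal medians or with an intensity trend, 0 of the 9 genes were higher. Over probe sets with 1 symbol alone, 4 of the 9 genes were lower, and 2938 probe sets, 2741 genes and 30 pathway genes were called. At an adjusted p under 0.1 there were 2316 probe sets, 1578 genes and 18 pathway genes, and at 0.01 there were 0 lower and 0 higher of the 9 genes, 95 probe sets, 73 genes and 1 pathway gene. With each array left out in turn the counts were 0 to 1 lower and 0 to 0 higher of the 9 genes, 0 to 454 probe sets, 0 to 241 genes and 0 to 6 pathway genes. *Igfbp4* changed sign after another quantile normalization (log2 fold change −0.0028) and, with an array left out, ranged from −0.045 to 0.13, and *Igf2* from −0.081 to 0.29. The other 7 genes kept their direction in all 12 refits, while averaging probe sets by gene, robust eBayes, and leaving out probe sets with means under 6 left these counts within 1.5 times. Signal over background could not be judged without detection calls.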

Other observations

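*Igf2*, *Igf2r* and *Grb10* are imprinted in the mouse, which means that 1 parental copy is silenced. Of 18 other imprinted genes 14 were measured, and none was called by limma, while 3 had an unadjusted p under 0.05, a share near the 20.4% of all genes (median log2 fold change 0.050). *Plagl1*, which encodes a zinc finger protein, had log2 values of 7.16 and 7.52 with EtOH and 6.87 and 6.64 with 4OHT (log2 fold change −0.59, 95% interval −0.99 to −0.18, adjusted p = 0.149 from limma). *Airn*, the non-coding RNA transcribed antisense to *Igf2r*, varied most within a treatment, with values of 10.39 and 10.02 with EtOH and 10.63 and 9.85 with 4OHT. Array 1 was the brighter one in both treatments, and the log2 fold change of 0.039 had a 95% interval of −0.73 to 0.81. The sources used here do not say where its probes lie relative to *Igf2r*.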
